A study of Chlamydomonas reinhardtii with 2 samples.

Results

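Transcripts were assembled from RNA sequencing of the green alga Chlamydomonas reinhardtii, and the loci assembled on the nuclear chromosomes of strain CC5325 are described here, away from the chromosome ends that hold ribosomal RNA genes. The loci were chosen by their name and place in the CC5325 table: an identifier given by the assembler StringTie, a position on a nuclear chromosome, and a place outside the ends of chromosomes 1, 8 and 14. The rule took 1100 of the 1146 assembled loci of CC5325 (96.0%). The same limits took 186 of the 219 assembled loci of CC125 (84.9%). An assembled locus exists only where reads piled up, so the number, place, length and Coverage of the CC5325 loci are values the rule used, and they are given as a description.

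CC5325 and CC125 are laboratory strains that the labels call wild type. Both were grown on a shaker in acetate medium, which feeds cells along with light, at 25 °C under 20 μmol photons m-2 s-1. Each strain gave 1 library, so differences between strains have no replicate check and come without a p-value. Per the labels' protocols, total RNA was depleted of ribosomal RNA and sequenced in pairs of 150-base reads, while the molecule field names polyA RNA. Aligned sequence amounted to 5.81 Gb in CC5325 and 3.18 Gb in CC125, a ratio of 1.83. The labels do not say whether libraries kept the strand of the RNA, so reads of a gene and of its antisense partner cannot be told apart.

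A transcript assembler joins overlapping and spliced alignments into models without needing a prior gene model. A locus can therefore match an annotated gene, cover a piece of one, or lie where no gene is annotated. In this program, a locus with strand + or - can draw its strand from splice junctions or from the annotation, and a strand of "." means that none could be given. Coverage counts reads per base, averaged over the model.

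At each end the limits fell between loci of very different Coverage. On chromosome 1 the first locus kept, STRG.2 at chr1:48392-50181, had a Coverage of 2.69, and the last left out, STRG.1 at chr1:1533-22997, had 18543. On chromosome 8 the values were 1.63 for STRG.553 inside and 19881 for STRG.554 outside. On chromosome 14 they were 1.11 for STRG.956 inside and 81225 for STRG.957 outside. The rule left out 13 nuclear loci at these ends and 33 loci of the organelle genomes.

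The kept loci held little of the sequence. Coverage times length came to at most 18.7 Mb in CC5325, which is 124363 reads of 150 bases and 0.321% of aligned bases. In CC125 the loci of the same places held at most 16.2 Mb, 108039 reads and 0.509%. By Coverage these are upper limits, since spans include introns, but they need not be where FPKM exceeds what Coverage gives. In deposited TPM the order of the libraries was reversed, with sums of 11848 in CC5325 and 7669 in CC125. Most of the CC125 reads came from its overlapping loci STRG.96 and STRG.97 on chromosome 8, with 22649 and 78882.

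Most CC5325 loci were short and thinly covered. Length ran from 168 to 6696 bases with a median of 763, and the middle 50% lay between 510 and 1263 bases. In CC125 the median was 767 bases, in a range from 168 to 7257. Coverage had a median of 1.75 in CC5325 and 2.56 in CC125. In CC5325, 630 of 1100 loci (57.3%) had a Coverage under 2, 165 (15%) had at least 5, 77 had at least 10, 12 at least 100 and 4 at least 1000. Coverage was at least 1 in 1099 of the 1100, and at least 1 in all 186 of CC125. The exception was STRG.79, inside Cre01.g051550 on chromosome 1, with a Coverage of 0.0830 but 14.9 TPM.

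**Figure D1:**
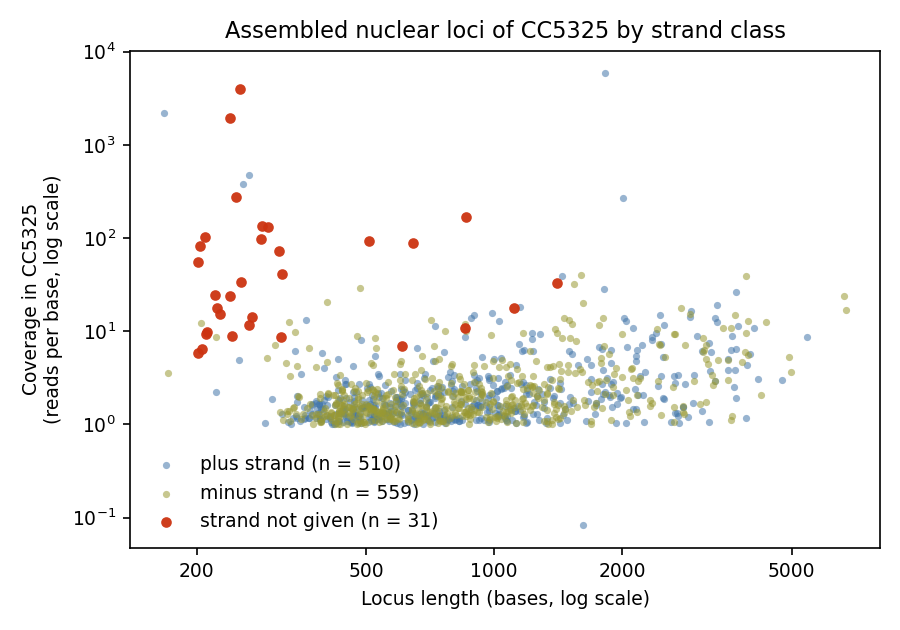
Each point is 1 assembled nuclear locus of CC5325, with its length in bases against its Coverage in reads per base, both on log scales, coloured by strand class. The 31 loci without a strand sit at a Coverage of 5.89 to 3991, while the 510 loci on the plus strand and the 559 on the minus strand mostly lie just above 1.

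A handful of loci carried most of the sequence. The 12 with the highest Coverage held 72.6% of Coverage times length, and STRG.539 alone held 56.9%. Without those 12 the median Coverage was 1.74. STRG.539 lies at chr8:2863467-2865284 on the plus strand, overlaps the 3929-base gene Cre08.g374100 with 27.6% of its length, and had a Coverage of 5842. Its FPKM was 2.56 times what its Coverage gives, so its level depends on the deposited unit. STRG.540, 253 bases without a strand, lies inside STRG.539 and had a Coverage of 3991. Next was STRG.34 at chr1:2861745-2861912, with 2186, which has exactly the coordinates of the 168-base gene Cre01.g800056. After it came STRG.705 at chr11:1672929-1673168, with 1948 and no annotated gene. The files give no symbol for these genes.

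The longest loci lay over genes with a symbol. STRG.152, 6696 bases at a Coverage of 16.9, spans RBCS2, which encodes the small subunit of the carbon-fixing enzyme Rubisco. RBCS2 itself is 1995 bases and took 29.8% of the locus, and FPKM was 2.01 times what Coverage gives. The locus also overlaps a gene on the opposite strand, so its values are not those of RBCS2 alone. STRG.281, 6652 bases at 24.1, has the coordinates of EF3, a translation elongation factor. STRG.70, 5442 bases at 8.64, has those of PFL1, pyruvate formate lyase, an enzyme of fermentation. STRG.179 spans 86.4% of MAS1 over 4980 bases at 3.69, and STRG.100 has the coordinates of TRK1 over 4919 bases at 5.32. At the short end, only STRG.34 and STRG.384 (171 bases, Coverage 3.56) were under 200 bases, and both had exactly the coordinates of a reference gene.

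Strand classes were close to balanced. In CC5325, 510 loci (46.4%) were on the plus strand, 559 (50.8%) on the minus strand and 31 (2.82%) had no strand. In CC125 the numbers were 83, 95 and 8. The 31 loci without a strand were a group apart in the values the rule used: their median length was 254 bases, 24 were under 400 bases, and their median Coverage was 32.6. They made up 16 of the 25 loci with the highest Coverage.

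The overlap with reference genes was nearly complete. A reference gene on either strand was overlapped by at least 1 base in 1082 of 1100 CC5325 loci (98.4%) and in 181 of 186 CC125 loci (97.3%). Gene spans cover 79.7% of the nuclear sequence up to the last row of each chromosome, 112 Mb in all. Among loci with a strand, 1058 of 1069 in CC5325 (99.0%) and 176 of 178 in CC125 overlapped a gene on their own strand, while genes of a given strand cover 40.4% of that sequence. How far the annotation itself guided the assembly is not given in the sources used here. Since a strand can be drawn from the annotation, the same-strand share is a description, and 40.4% is not a baseline for it.

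By class, 997 CC5325 loci (90.6%) overlapped genes on their own strand alone, and 61 overlapped genes on both strands. The opposite strand alone was overlapped by 2 loci, 22 loci without a strand lay in a gene, and 18 loci touched no gene. For each locus the host gene is taken as the gene with the largest overlap, on the same strand where there is one. Of the loci, 1058 (96.2%) lay wholly inside their host. Exactly the coordinates of a gene were found in 119 CC5325 loci and 36 CC125 loci, and in 98 and 29 of these the Coverage of the locus and of the gene row was the same.

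Most loci covered a piece of a gene. The median locus spanned 15% of its host in CC5325 (middle 50%, 7.84 to 36.5%) and 32.4% in CC125. In CC5325, 358 loci spanned under 10% of the host and 148 spanned at least 90%. Median Coverage was 1.42 in the first of these classes and 5.33 in the last, with 1.67, 1.98 and 3.36 in the classes between. The host was also longer in the first class, with a median of 9451 bases against 2142 in the last. For loci with a host on the same strand and above 0, Coverage over that of the host row had a median of 2.86 in CC5325 and 1.77 in CC125.

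**Figure D2:**
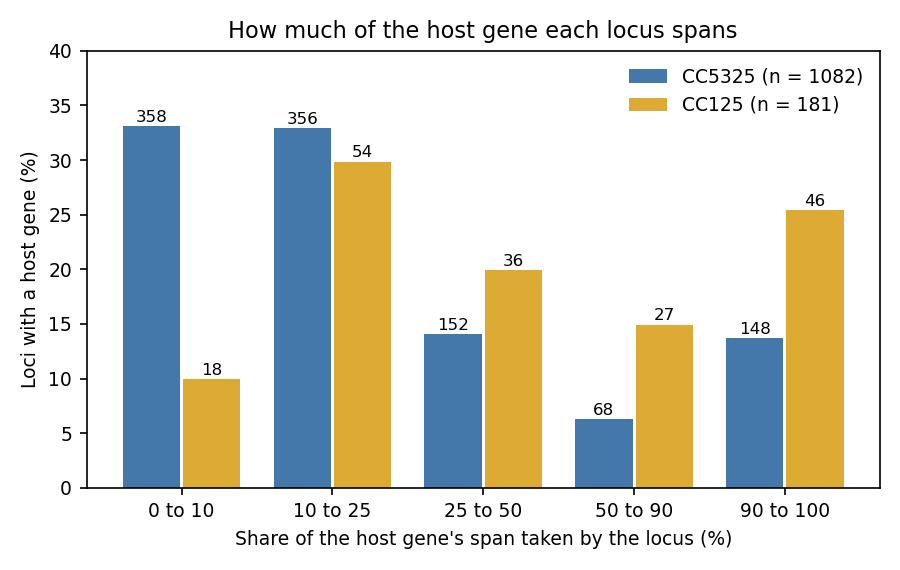
Assembled loci by the percentage of the host gene's span that they cover, for CC5325 and CC125. In CC5325, 358 loci (33.1%) cover under 10% of the host and 148 (13.7%) at least 90%.

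The 1082 loci lay in 858 host genes. A single locus was found in 692 hosts, and 166 hosts held at least 2. ADH1 (Cre17.g746997), which encodes a dual alcohol and aldehyde dehydrogenase of fermentation, held 6 loci at Coverages of 1.68 to 3.63. METE1, the methionine synthase that needs no vitamin B12, held 4 loci at 1.07 to 4.85, and METH1, the vitamin B12-dependent one, held 4 at 1.19 to 2.72. FAP113, listed as a flagellar associated protein, held 4 at 2.53 to 3.66. Loci of 1 gene share their RNA and are not independent observations.

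Partial loci lay mostly in the interior of genes. Among loci spanning under 50% of a host on the same strand, 842 in CC5325 and 103 in CC125, midpoints inside the host numbered 836 and 102. With 0 as the 5′ end and 1 as the 3′ end, the median midpoint was 0.494 in CC5325 (middle 50%, 0.310 to 0.670) and 0.419 in CC125 (0.193 to 0.634). A locus ended within 50 bases of the 3′ end in 14 CC5325 loci and 5 CC125 loci, and within 50 bases of the 5′ end in 12 and 12. The 10% of the gene next to the 3′ end held 1.56% of midpoints in CC5325 and 0.980% in CC125. A long locus cannot have its midpoint near an end, which lowers the outermost shares in both libraries.

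**Figure D3:**
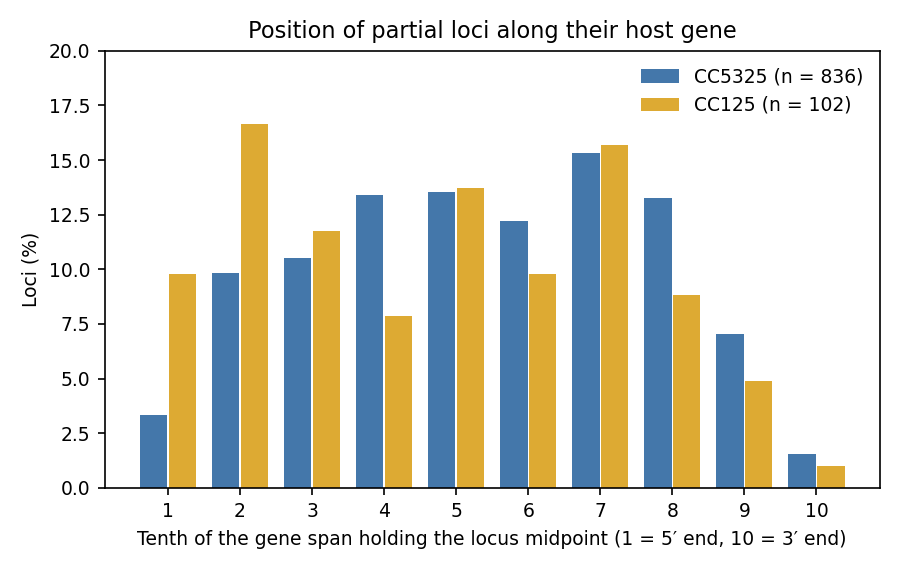
Share of partial loci with their midpoint in each 10% step of the host gene's span, from the 5′ end (1) to the 3′ end (10), for 836 loci of CC5325 and 102 of CC125. In CC5325 step 7 is the fullest (15.3%) and step 10 is the emptiest (1.56%).

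Of the 2 loci on the opposite strand alone, 1 is described here. STRG.727, at chr11:3715485-3717903 on the minus strand inside Cre11.g478950, had a Coverage of 10.5 and an FPKM 2.24 times what Coverage gives, and it was without a CC125 locus.

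Loci without a gene were split evenly between those with and those without a strand. Of the 31 loci without a strand, 9 (29.0%) touched no gene, against 9 of 1069 loci with a strand (0.842%). The other 22 lay inside genes whose own rows were almost empty. Their hosts were listed at 0 in 3 cases and reached at most a Coverage of 0.628, and the locus had a median of 439 times the Coverage of its host where the host was above 0. For example, STRG.899 at chr13:3434200-3434484, within the span of ERF1, had 135, and the ERF1 row had 0.0630 in CC5325 and 0.0249 in CC125. STRG.486 at chr7:4005708-4005955, with 276, lies in Cre07.g340050, which had 0.628 in CC5325 and 0 in CC125. Each of these 22 loci spanned at most 14.8% of its host.

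Among the 18 loci without a gene, Coverage was highest in STRG.540 and STRG.705. They were followed by STRG.780 at chr12:3264630-3264838 (104), STRG.824 at chr12:5638850-5639103 (34.0) and STRG.437 at chr6:8512954-8514357 (32.6). STRG.984 on chromosome 15 had 15.4, STRG.528 on chromosome 8 had 12.2 and STRG.393 on chromosome 6 had 10.7. Of these 8, only STRG.528 had a strand. Chromosomes 5 and 12 held 3 of the 18 each.

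Loci were spread over all 17 chromosomes, at 9.83 per Mb in all. Chromosome 12 had 131 loci in CC5325 (13.2 per Mb) and 33 in CC125, the highest number in each library. Chromosomes 6 and 9 followed at 12.3 and 12.1 per Mb in CC5325. Chromosome 15 had the lowest density, 29 loci or 4.97 per Mb. Set against the genes listed above 0 in CC5325, chromosome 15 had 12.6 loci per 100 genes, near the 11.8 of all chromosomes, while chromosome 9 had 15.9 and chromosome 10 had 8.92. Median Coverage per chromosome ran from 1.56 to 1.95.

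Gene groups differed widely in how many members carried a locus. A gene is said to carry a locus where at least 1 base overlaps, even if another gene is the host. Of 17489 nuclear genes, 927 (5.30%) were overlapped by a CC5325 locus and 183 (1.05%) by a CC125 locus, and 167 were overlapped in both. Genes with an RPL, RPS or RPLP symbol, which encode proteins of the cytosolic ribosome, were overlapped in 72 of 75 cases in CC5325 and 69 of 75 in CC125. Their loci had a median Coverage of 8.97 and a median span of 100% of the host in CC5325. The 3 without a CC5325 locus were RPS29, RPS27E2 and RPL34A. The RPS29 row had a Coverage, not scaled to depth, of 5.08 in CC5325 and 5.45 in CC125. RPS27E2 and RPL34A were listed at 0 in both libraries. Ribosomal protein genes hosted 60 of the 148 loci that spanned at least 90% of their host, and 6 of the 866 that spanned under 50%.

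Among genes of the light-harvesting family, which bind chlorophyll and pass energy to the photosystems, 19 of 33 carried a CC5325 locus and 5 of 33 a CC125 locus. All 19 were among the 24 LHC genes, and none of the 9 genes with an ELI symbol, early light-induced proteins, carried one in either library. The highest were LHCBM1 (STRG.90, Coverage 39.7), LHCBM7 (STRG.855, 39.2), LHCBM3 (STRG.294, 14.2) and LHCBM2 (STRG.856, 10.9). The LHCBM genes encode the main antenna proteins of photosystem II and are similar in sequence, so reads may be shared between copies and the split is uncertain.

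The other lists had shorter and thinner loci. Heat shock proteins and chaperonins, which fold other proteins, were overlapped in 9 of 30 cases in CC5325 and 2 of 30 in CC125, with a median Coverage of 2.0. HSP90A had the highest locus, STRG.562, at 3.11, followed by HSP70A (STRG.533) at 2.96. All 4 tubulin genes, which encode the subunits of microtubules, carried a locus in CC5325 and only TUB2 did in CC125, with a median of 1.94. Genes of flagellar proteins were overlapped by a locus in 56 of 398 cases in CC5325 and 3 of 398 in CC125. FAP46, among those 3, had its own row at 0 in CC125. Loci hosted by flagellar genes in CC5325 had a median Coverage of 1.47 and a median span of 9.08% of the host. The highest were STRG.163 (6.21), which overlaps FAP114, FAP310 (STRG.96, 5.73), FAP303 (STRG.809, 4.98) and FAP102 (STRG.585, 4.64). Only 24.4% of STRG.163 lies in FAP114, whose own row had a Coverage of 0.467 in CC5325. Of 125 histone genes, only HON1, a linker histone gene, carried one (STRG.867, Coverage 3.04), and none did in CC125. Near-identical histone copies can share reads.

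Most CC5325 loci had no assembled counterpart in CC125. A CC125 locus overlapped 151 of the 1100 (13.7%), with 148 CC125 loci taking part, while 16.5% of all 1146 assembled loci of CC5325 had one. In the other direction, 165 of the 186 CC125 loci (88.7%) overlapped a CC5325 locus.

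The share with a CC125 locus went with Coverage. It was 0.881% for loci under a Coverage of 1.25 (95% exact binomial interval 0.107 to 3.15), 7.14% between 2 and 3 (3.96 to 11.7), 21.1% between 3 and 5 (13.9 to 30.0) and 62.5% between 5 and 10 (51.5 to 72.6). At 10 or more it was 62.3% (50.6 to 73.1). These intervals, and those below, cover at most counting error. At the depth of CC125, a Coverage of 1.83 in CC5325 corresponds to 1. Of the 572 loci that scale to under 1, 9 (1.57%) had a CC125 locus, and of the 528 that scale to at least 1, 142 (26.9%) did. Of the 949 loci without a counterpart, 563 (59.3%) scale to under 1, and all 186 CC125 loci had a Coverage of at least 1. For these 563, a lower level in CC125 could not be told from an equal one at this depth.

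**Figure D4:**
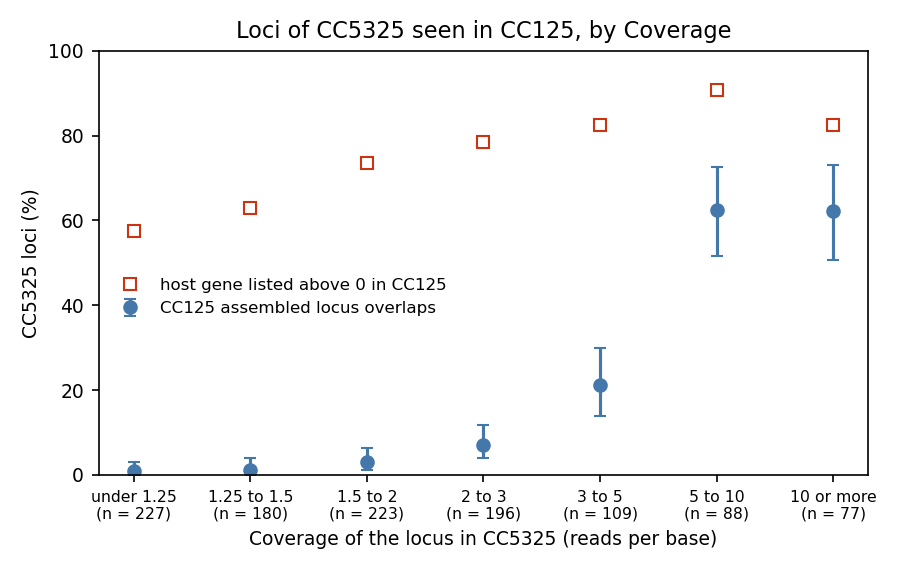
Percentage of CC5325 loci overlapped by a CC125 assembled locus (circles, with 95% exact binomial intervals for counting error) and percentage of those with a host gene whose host was above 0 in CC125 (squares), by Coverage in CC5325 in reads per base. The share with a CC125 locus is 0.881% in the lowest class and 62.3% in the highest.

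Among loci with a Coverage of at least 10, the count differed by strand class. Of the 53 with a strand, 42 (79.2%) had a CC125 locus, and of the 24 without a strand, 6 did. Among all loci the order was reversed, with 142 of 1069 with a strand (13.3%) and 9 of 31 without one (29.0%). At a Coverage of at least 10, 29 loci had no CC125 locus, 18 without a strand and 11 with one. Loci of high Coverage with no CC125 locus included STRG.486, STRG.899 and STRG.495 at chr7:5008652-5008946, which had 130. None of these 3 had a strand.

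Host genes of loci without a counterpart were often still listed in CC125, at low levels. Of 937 such loci with a host, 638 (68.1%) had a host above 0 in CC125. Over all loci, 595 of 858 distinct hosts (69.3%) were above 0 in CC125, against 21.2% of all reference genes. Hosts were chosen by having reads in CC5325, so this difference is a description. Hosts of loci without a counterpart reached at most 1.64 TPM in CC125, and 9 were at 1 TPM or more.

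CC5325 loci with a counterpart were longer and better covered than those without. Their median Coverage was 7.23, against 1.61 for those without, and their median length 1802 bases, against 713. The CC125 loci they overlapped had a median length of 936 bases. The CC125 locus was shorter in 87 pairs, longer in 27 and equal in 37, and all 37 had the same coordinates. In 47 pairs it was under 50% of the length of the CC5325 locus. The strand was the same in 149 of the 151 pairs.

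The level of paired loci was compared as Coverage divided by the aligned bases of the library, CC5325 over CC125. A locus was called where this ratio was past 2-fold. In CC5325, 44 of 151 loci (29.1%) were at least 2-fold higher and 21 (13.9%) at least 2-fold lower than in CC125, and 86 lay within 2-fold. Over all paired assembled loci, 27.5% were higher and 22.8% lower, and over the 175 reference genes averaging 1 TPM or more, 48% were higher and 10.3% lower. A pair needs an assembled CC125 locus, and all 186 of these had a Coverage of at least 1. Reference genes entered on their mean TPM instead, so pairs and reference genes were selected in unlike ways. The median log2 ratio was 0.30 over the 151 pairs and 0.91 over those reference genes, so that the median reference gene stood higher in CC5325 on this scale. With that median set to 0, 19 pairs were higher and 59 lower, so the numbers of pairs called rest on the scale. A log2 ratio that is negative or above 0.91 keeps its direction under that change. An exact binomial interval left out equality in 42 of the 44 higher and 17 of the 21 lower pairs, and 38 pairs had under 10 reads in CC125. Reads were counted over whole spans with mates taken as independent, so these intervals are narrower than counting error alone would give.

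Pair members differ in extent, and Coverage is a mean over each model's own length. The rows of the host genes have the same coordinates in both libraries. On those rows, 58 of 143 pairs were at least 2-fold higher and 11 at least 2-fold lower, with a median log2 ratio of 0.70. Where a CC5325 locus overlapped several CC125 loci, as 17 did, the pair is with the largest overlap. Taking the most covered CC125 locus instead changed the call of 7 of the 17 and gave 38 higher and 22 lower. The locus and the host row both called 39 pairs higher and 8 lower, and none was called in opposite directions. The 2 measures share reads, and 98 CC5325 loci had the same coordinates and Coverage as their host row. Their agreement is therefore not an independent check.

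**Figure D5:**
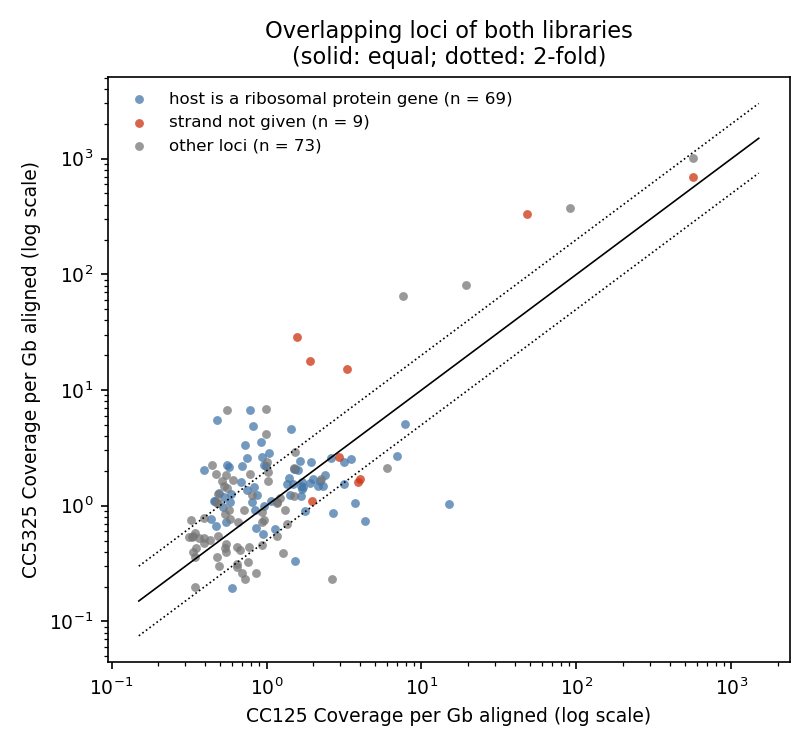
Coverage per Gb of aligned sequence of each CC5325 locus (vertical) against that of the CC125 locus it overlaps (horizontal), for 151 pairs, on log scales. Lines mark equality (solid) and 2-fold (dotted), and colours mark ribosomal protein hosts and loci without a strand. In CC5325, 44 loci lie past the line for 2-fold higher and 21 past that for 2-fold lower.

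The largest ratio was that of STRG.797 at chr12:4403394-4404253, without a strand, inside Cre12.g519900. It had a Coverage of 168 in CC5325 and 5.03 in CC125, which is 18.3-fold per aligned base (95% interval 12.7 to 27.5). The host row was at 0.183 in CC5325 and 0.0488 in CC125. STRG.705, without a gene, had 1948 in CC5325 and 152 in CC125, or 7.00-fold (6.18 to 7.95). STRG.780, also without a gene, had 104 in CC5325 and 6.09 in CC125, or 9.31-fold (6.18 to 14.5), but the locus was 209 bases in CC5325 and 700 bases in CC125. STRG.832, in Cre12.g801441, had 381 in CC5325 and 24.3 in CC125, and its host row gave a log2 ratio of 3.18 beside 3.10 for the locus.

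Light-harvesting genes were among the higher pairs. LHCBM7 (STRG.855) had 39.2 in CC5325 and 1.77 in CC125, a log2 ratio of 3.60, from only 7 reads in CC125, and its gene row gave 4.50. LHCBM1 (STRG.90) had 39.7 in CC5325 and 3.16 in CC125, a log2 ratio of 2.78, from 13 reads in CC125, and 1.31 on its gene row. Its locus also overlapped another CC125 locus, at a Coverage of 13.6, against which the log2 ratio was 0.67, within 2-fold. LHCBM2 (STRG.856) had a log2 ratio of 1.98, and 3.27 on its gene row. Of the 5 light-harvesting pairs, 3 were at least 2-fold higher and 0 lower, LHCBM1 being one of the 3, and the rest lay within 2-fold. Over all pairs 29.1% were higher, and over the reference genes averaging 1 TPM or more 48% were. The LHCBM values carry the same uncertainty between copies.

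Ribosomal protein genes hosted 69 of the 151 pairs (45.7%). In CC5325, 21 of the 69 stood at least 2-fold higher, 8 lower and 40 within 2-fold. On the rows of the host genes 21 were higher and 5 lower. The other 82 pairs gave 23 higher and 13 lower, and over all 151 pairs 29.1% were higher and 13.9% lower. RPL13 (STRG.950) had the same coordinates in both libraries and a Coverage of 32.2 in CC5325 and 1.52 in CC125, or 11.6-fold (7.06 to 20.6). RPS3A (STRG.873) had 39.0 in CC5325 and 2.50 in CC125, a log2 ratio of 3.09, but 1.44 on its gene row. Against another CC125 locus in the same gene, 392 bases at a Coverage of 22.2, the log2 ratio was -0.06. RPS25 (STRG.547), with the same 484 bases in both, had 29.4 in CC5325 and 24.8 in CC125, a log2 ratio of -0.62.

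Other ribosomal protein genes stood at the low end. RPL35 (STRG.938) had 5.99 in CC5325 and 48.0 in CC125, a log2 ratio of -3.87, and -2.19 on its gene row. RPL37 (STRG.651), with the same coordinates in both libraries, had 4.27 in CC5325 and 13.8 in CC125, a log2 ratio of -2.56, and -2.67 on its gene row. For RPS24 (STRG.683) and RPS9 (STRG.520) the loci gave -2.20 and -1.82, but the gene rows gave -0.33 and -0.093, within 2-fold. The RPS9 locus was 3082 bases in CC5325 and 522 bases in CC125.

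EPYC1, the linker protein that gathers Rubisco in the pyrenoid, was the lowest pair outside the ribosome. STRG.661 had 1.34 in CC5325 and 8.36 in CC125, a log2 ratio of -3.51, and the gene row gave -1.95. The locus was 2686 bases with 24 reads in CC5325 and 698 bases with 39 reads in CC125. LCI30 (STRG.769) had a log2 ratio of -1.69 by locus and 0.19 on its gene row. HSP70A (STRG.534) had 1.34 in CC5325 and 2.31 in CC125, a log2 ratio of -1.65, from 4 reads in CC5325 and 7 in CC125, and its interval reached past equality. STRG.646, in Cre10.g424100, had -1.73 by locus and -1.39 on its gene row.

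STRG.539, which held most of the sequence, overlapped a pair of CC125 loci. The larger overlap was with a minus-strand locus at chr8:2863424-2865311, at a Coverage of 1799, which puts CC5325 1.78-fold higher per aligned base. Against the plus-strand CC125 locus at chr8:2863457-2868840, at 2198, CC5325 was 1.46-fold higher. On the row of Cre08.g374100, CC5325 had 1173 and CC125 had 737, a log2 ratio of -0.20 per aligned base. The direction for this locus thus differed between locus and gene row, and each value lay within 2-fold.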

How the data were processed

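Total RNA of 1 library per strain was sequenced. The submitters' processing notes name StringTie 2.2.3, HISAT2 2.2.1, FastQC 0.12.1 and Trimmomatic, with settings that the sources used here do not give. The deposited tables give Coverage, a signal of mean reads per base not scaled to depth, per the file headers. FPKM was deposited per kilobase and per 1000000 fragments. TPM as deposited sums to 1000000 over the assembled loci of a library. Gene identifiers carry the CC-4532 version 6.1 suffix, and coordinates are those of the files. No sequence is printed, since no genome of that build was used here.

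Coverage over FPKM gave the aligned bases of each library. Loci and genes were compared by an overlap of at least 1 base. A pair is a CC5325 locus and the CC125 locus with the largest overlap. Its ratio has an exact binomial interval at 95%, conditional on both libraries' reads (Coverage times length over 150), with mates taken as independent. This makes the interval too narrow. Named loci are those highest or lowest in Coverage, length or ratio, per class, per chromosome and per gene list. Not every locus so chosen is reported here. The members, lists and this rule were chosen with earlier results of these data known. Alternatives changed overlaps, scales and filters. Scripts ran on Python 3.11.15 with scipy 1.17.1, numpy 2.4.6, matplotlib 3.10.9 and pandas 2.3.3, and were tested on simulated data.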

Additional observations from a re-analysis of the deposited data

How the results depend on the processing

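The share of loci overlapping a gene fell to 19.5% where 50% of both locus and gene had to overlap, since most loci are pieces of genes, and stayed within 93.9 to 98.4% under the other settings. The share with a CC125 locus was 8.55% at an overlap of 50% of both and 62.4% at a Coverage of at least 5. Pairs at least 2-fold higher in CC5325 numbered 84 and lower 4 with no scaling to depth. With the median of reference genes set to 0 they numbered 19 and 59, and at an overlap of 50% of both loci, which left 94 pairs, 24 were higher and 14 lower. Alternatives chosen after seeing the data were the most covered CC125 locus where several overlap (38 higher and 22 lower), the rows of host genes, which left 11 lower, pairs with at least 10 reads, pairs without loci of excess FPKM, and leaving out the most covered locus, which put the share held by the 12 most covered at 36.6%. With deposited TPM 35 were higher and 28 lower. Leaving out a library was not run, since each strain has 1. No paired analysis was possible because each strain has 1 library and the labels give no replicate numbers. Depth limits the thin loci, most of which had a Coverage under 2.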

Other observations

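The 21 CC125 loci without a CC5325 counterpart all lay in genes, and each host was above 0 in CC5325. Their Coverage in CC125 had a median of 1.28 and reached 7.74 in RPS29, whose gene row had 5.08 in CC5325 and 5.45 in CC125. EGD1 differed the other way on its gene row, with a Coverage of 14 in CC5325 and 0.608 in CC125. Genes of carbon metabolism among them were ENO1, a glycolytic enolase, with 1.0 in CC5325 and 0.200 in CC125, and PRK1, the phosphoribulokinase of the Calvin cycle, with 0.848 in CC5325 and 1.18 in CC125. These Coverages are not scaled to depth, which was 1.83 times higher in CC5325. In TPM, the RPS29 row had 1.99 in CC5325 and 4.73 in CC125, and EGD1 had 5.49 and 0.528. ENO1 had 0.392 TPM in CC5325 and 0.174 in CC125, and PRK1 had 0.332 and 1.03. These genes were chosen after their values were seen.

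In 26 CC5325 loci and 7 CC125 loci, FPKM was over 1.25 times what Coverage gives. In CC5325 they include the first 3 loci kept on chromosome 1, STRG.2, STRG.3 and STRG.4, at 4.2, 3.13 and 3.52 times, and STRG.79 at 458 times.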
